A study of Mus musculus with 12 samples.

Results

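Knockdown of the long non-coding RNA lncRNA5251 was compared with its scrambled control in mouse testis across all genes of the expression table. The comparison used the 3 libraries of F0_5251KD and the 3 libraries of F0_3NC, 6 of the 12 samples of the series, and 16297 of the 20718 genes in the table passed the filter on low counts and were tested. All groups were testis of mice whose strain is labelled IRC, which the methods write as ICR. Lentivirus was injected into the testes at 4 weeks of age and the males were mated 5 weeks later, at 9 weeks, for 4 days and kept for 4 days more. F0_5251KD received lentivirus coding for 3 short hairpin RNAs (shRNAs) against lncRNA5251, F0_3NC received the same knockdown backbone with a scrambled shRNA, and the 2 remaining groups received the overexpression backbone, empty (F0_5NC) or with lncRNA5251 (F0_5251OV). RNA came from testis tissue, in which transduced cells cannot be told from others, and the labels do not say whether the 3 libraries of a group came from 3 animals, so p-values measure the spread between libraries.

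A short hairpin RNA is cut in the cell to a small double-stranded RNA, one strand of which guides the silencing complex to transcripts that pair with it. A testis is mostly germ cells: spermatogonia that divide by mitosis, spermatocytes in meiosis, and spermatids that build the acrosome and tail. Sertoli cells, Leydig cells, peritubular muscle, endothelium and macrophages make up the rest. In RNA from whole tissue, fewer cells of a type and less RNA per cell cannot be told apart.

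The sequences of the 4 shRNAs are given because they show which transcripts the knockdown could reach directly. They are the sense strands as the study lists them, 5′ to 3′, and capitals mark the bases that pair with bases 2 to 8 of the opposite strand, the seed of the guide if that strand is loaded.
control 3NC: ttctccgaacgTGTCACGt
knockdown 1: gctgggacttaatGTCCTTCt
knockdown 2: gcatgggcaattcAAACAAAt
knockdown 3: gcttattatgcatCGTAAACc
Each knockdown sequence matched 1 annotated gene of the mm10 transcripts without a mismatch, Purb, which codes for a single-stranded DNA- and RNA-binding protein, and the control sequence matched none. The Purb transcript has 1 exon (chr11:6467599-6475917, minus strand), and the matches lay on its own strand, in its 3′ untranslated region, at chr11:6468416-6468436, chr11:6467969-6467989 and chr11:6468248-6468268 for knockdown 1, 2 and 3. No row of the table was matched to lncRNA5251, so the level of the targeted RNA was not analysed here.

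Purb was therefore the nearest measured transcript to the target. Purb stood at 76.3, 92.3 and 73.9 counts per 1000000 counts of the scaled library (CPM) in the F0_3NC libraries and at 79.6, 72.8 and 72.2 CPM in the F0_5251KD libraries. The groups overlapped. The log2 fold change, knockdown over control, was −0.11 ± 0.093 (SE, n = 3 per group), its 95% interval ran from −0.31 to 0.089, and edgeR's adjusted p was 0.897. With 1 library left out at a time the log2 fold change lay between −0.171 and −0.003. Purb ranged from 68.4 to 75.6 CPM in F0_5NC and from 70.2 to 80.2 CPM in F0_5251OV.

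The 6 libraries were alike in depth, with 15431383 to 16355720 counts and 18597 to 18677 genes with at least 1 count. An exact permutation test of the totals, two-sided, gave p = 0.6, where 3 against 3 libraries cannot go below 0.1. Protamines and testis histones, which mark testis, summed to 14300 to 18700 CPM in F0_3NC and 16000 to 17800 CPM in F0_5251KD. F0_3NC replicate 2 stood apart from the other F0_3NC libraries: its counts differed from those of replicates 1 and 3 by a chi-square of 18.32 and 20.87 per gene, against 3.782 between replicates 1 and 3 and 5.923 to 6.046 between the knockdown libraries. The same measure ran from 5.409 to 13.56 within F0_5NC and from 4.865 to 17.02 within F0_5251OV. Medians of gene lists that moved by over 1.5 times without this library are given with and without it.

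Few genes were called. At an adjusted p under 0.05 in edgeR's quasi-likelihood test, 4 genes rose (0.0245% of those tested) and none fell (0%). At an unadjusted p under 0.05, 382 genes were higher (2.34%) and 391 lower (2.4%), 773 in all against the 815 that a 5% rate would give, and without F0_3NC replicate 2 the counts were 283 and 243. The median log2 fold change over all genes was −0.0045, the quartiles were −0.113 and 0.114, and 7996 genes lay above 0 and 8299 below. The 3 knockdown libraries all lay above the 3 control libraries for 899 genes (5.52%) and all below for 1022 genes (6.27%). By DESeq2, an alternative model of the counts, 15 genes passed on the higher side (0.0911%) and 5 on the lower side (0.0304%). In data simulated with 100 genes changed 2-fold and 100 changed 4-fold, DESeq2 recovered 78 and 88 and made 18 false calls. There edgeR recovered 70 and 90 and made 7 false calls. How many genes truly differ here is not known, so these numbers give no false share of the real calls.

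The 4 genes that rose encode immediate early products. Btg2, an antiproliferative transcription cofactor (chr1:134074865-134079155), stood at 24, 23.5 and 22.1 CPM in the controls and at 56.9, 50.9 and 72.0 CPM in the knockdown libraries (log2 fold change 1.37 ± 0.153 SE, edgeR adjusted p = 0.00857). Egr1, a zinc finger transcription factor, stood at 54.3, 50.7 and 47.1 CPM against 115, 92.3 and 111 CPM (1.07 ± 0.137, edgeR adjusted p = 0.0202). Zfp36, which binds AU-rich elements and speeds mRNA decay, stood at 13.6, 14.4 and 12.2 CPM against 24.7, 22.8 and 28.1 CPM (0.91 ± 0.122, edgeR adjusted p = 0.0223). Fos, a subunit of AP-1, stood at 3.74, 4.8 and 2.91 CPM against 9.09, 12.7 and 12.6 CPM (1.58 ± 0.227, edgeR adjusted p = 0.0328). Every knockdown library lay above every control library for the 4 genes. With 1 library left out the calls depended on which: 4 genes passed without F0_3NC replicate 2, 3 without F0_5251KD replicate 2, 1 without F0_5251KD replicate 1, and 0 on leaving out replicate 1 or 3 of F0_3NC, or replicate 3 of F0_5251KD. The LV5 groups stood lower than both: Btg2 averaged 4.44 CPM in F0_5NC and 4.03 CPM in F0_5251OV, and Egr1 4.46 and 3.44 CPM.

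The promoter of Btg2 is shown because this gene had the smallest adjusted p and its window holds the letters of a full cyclic AMP response element. Capitals mark the letters TGACGTCA, found 166 bases before the start in a search of both strands, in the RefSeq promoter window on mm10, chr1:134079106-134079405, minus strand.
Btg2: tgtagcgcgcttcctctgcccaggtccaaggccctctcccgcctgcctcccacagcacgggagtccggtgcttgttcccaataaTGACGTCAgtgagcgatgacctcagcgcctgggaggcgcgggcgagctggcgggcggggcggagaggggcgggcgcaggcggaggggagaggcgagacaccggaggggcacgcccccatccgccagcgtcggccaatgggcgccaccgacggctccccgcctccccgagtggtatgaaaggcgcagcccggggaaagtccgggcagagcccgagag
These letters stood in 1.79% of the 32851 promoter windows. Among the named genes, the windows of Purb (29 bases before the start), Dusp1, Ppp1r15a and Hlf held them too. The windows of Fos and Zfp36 did not. The shorter TGACG, which overlaps the first, stood in 20.8% of windows and in 2 places for Fos. The CArG box, the site of serum response factor, stood in 1.63% of windows, Zfp36 among them. The windows of Medag and Tsku held none of the 3 motifs.

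Outside the immediate early, MAPK feedback and NF-kB genes, the lower gene with the smallest p was Medag, a gene linked to adipogenesis (chr5:149367641-149431723). Medag stood at 12.2, 14.2 and 9.78 CPM in F0_3NC and at 6.29, 3.76 and 3.77 CPM in F0_5251KD. Its log2 fold change was −1.39 ± 0.238 (SE), with a 95% interval from −1.9 to −0.875, and edgeR's adjusted p of 0.118, the smallest among the lower genes, missed the threshold. DESeq2 gave Medag an adjusted p of 0.000769. Medag averaged 1.39 CPM in F0_5NC and 2.18 CPM in F0_5251OV, below the knockdown libraries.

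The 8 other lower genes described from the same rule had edgeR adjusted p-values from 0.491 to 0.814. Bach1, a repressor of the heme oxygenase gene, stood at 8.57, 9.91 and 7.73 CPM against 6.29, 4.73 and 5.05 CPM, a log2 fold change of −0.71 ± 0.169. Rarres1, a retinoic acid-responsive gene, stood at 15.5, 33.3 and 27 CPM against 14.0, 7.39 and 13.3 CPM, −1.13 ± 0.269, with a DESeq2 adjusted p of 0.0325. The groups were apart in both genes, narrowly so in Rarres1. Blnk, an adaptor of B cell receptor signalling, stood at 2.06, 1.82 and 1.59 CPM against 1.02, 0.778 and 0.766 CPM, −1.09 ± 0.282. Dock5, an activator of Rac, stood at 21.1, 15 and 17.8 CPM against 10.2, 9.53 and 14.6 CPM, −0.65 ± 0.168. Frmd6, an upstream member of the Hippo pathway, had the smallest difference of these, −0.40 ± 0.099, with 18.7, 19.4 and 20 CPM against 14.6, 15.6 and 13.8 CPM. Gcnt4 (−0.72 ± 0.185), a glycosyltransferase, and Zfp982 (−0.93 ± 0.249), a zinc finger protein, were the remaining autosomal genes. Ube2dnl1 (−0.47 ± 0.106) lies on the X chromosome. All 9, Medag included, had control and knockdown libraries that did not overlap, which the rule required. In F0_5NC the means were 4.426 CPM for Bach1, 14.9 for Rarres1, 1.859 for Blnk and 16.01 for Dock5. For Frmd6, Gcnt4, Zfp982 and Ube2dnl1 they were 13.1, 3.669, 9.554 and 11.08 CPM. Blnk alone of these stood above its F0_3NC mean, 1.824 CPM, and the others stood below theirs.

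The 10 higher genes named by that rule had edgeR adjusted p-values from 0.118 to 0.814. DESeq2 called 6 of them, with adjusted p-values of 0.000769 for Tsku, 0.00102 for Zfp36l1, 0.00469 for Slc45a3, 0.0121 for Ctgf, 0.0273 for Amotl2 and 0.0496 for Boc. Tsku, a secreted leucine-rich repeat protein, stood at 4.64, 4.44 and 3.9 CPM against 11.1, 8.17 and 9.45 CPM (log2 fold change 1.15 ± 0.195 SE). Plin1, a lipid droplet coat protein of adipocytes, stood at 1.03, 0.669 and 0.793 CPM against 2.29, 2.01 and 2.3 CPM (1.40 ± 0.249). Zfp36l1, a relative of Zfp36, stood at 28.4, 27.1 and 28.8 CPM against 44.7, 40.5 and 40.7 CPM (0.58 ± 0.104). Their libraries lay close together within groups. Amotl2, an angiomotin of the Hippo pathway, stood at 3.8, 4.01 and 4.16 CPM against 6.48, 6.87 and 7.86 CPM (0.82 ± 0.147), and Ctgf, a matricellular target of that pathway, at 24.9, 19.4 and 17.5 CPM against 30.6, 35.4 and 31.3 CPM (0.65 ± 0.139). Slc45a3 (1.13 ± 0.222), a solute carrier, Boc (0.74 ± 0.151), a coreceptor of Hedgehog ligands, Zfp395 (0.46 ± 0.119) and Acy1 (1.03 ± 0.272), which hydrolyses acylated amino acids, complete the list with Pcdhga3 (0.87 ± 0.203). Pcdhga3 shares exons with the other gamma protocadherins, so its counts are uncertain.

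**Figure D1:**
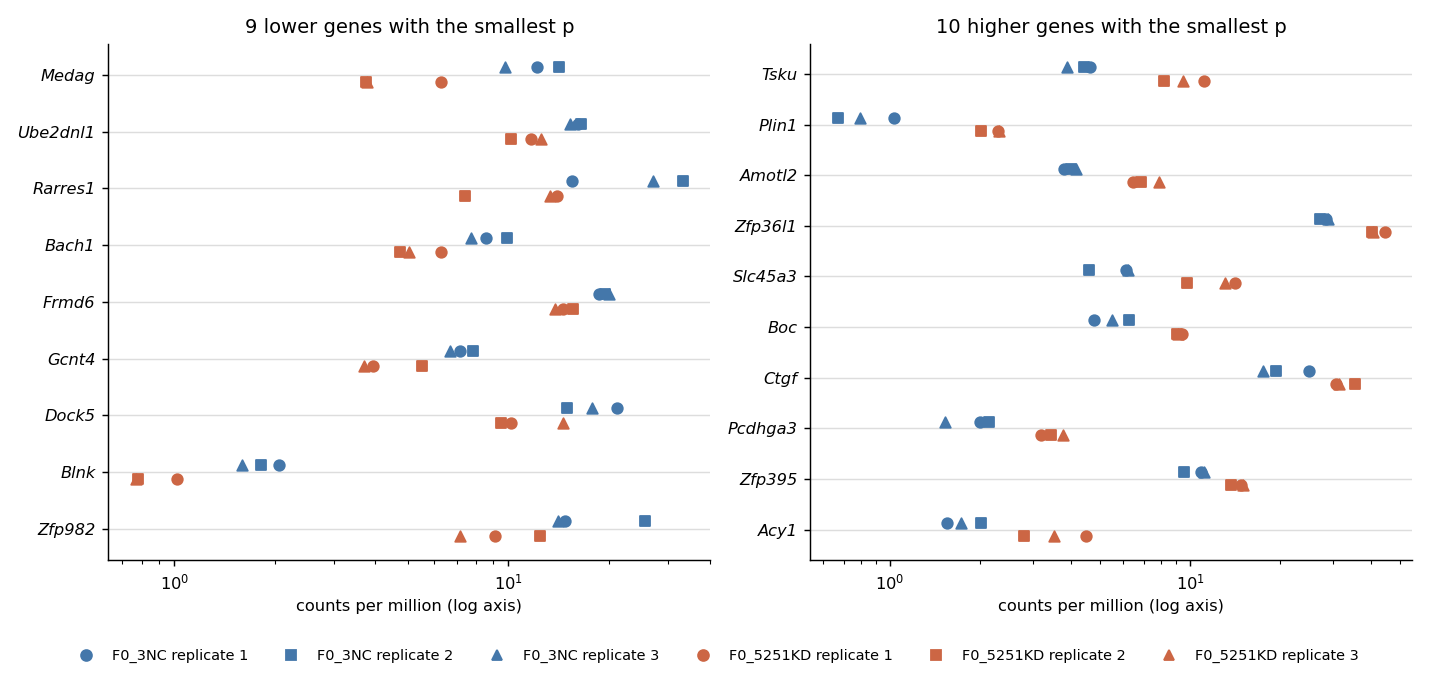
Level in CPM, on a log axis, of 9 lower and 10 higher genes named by this rule in each of the 3 F0_3NC and 3 F0_5251KD libraries, 1 point per library. The groups are separate in every gene, as the rule required, from 9.78 to 14.2 against 3.76 to 6.29 CPM for Medag to 3.9 to 4.64 against 8.17 to 11.1 CPM for Tsku.

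The genes measured with the least error moved little. In the 10% of genes with the lowest standard error of the log2 fold change (1630 genes, SE up to 0.0836, median level 110 CPM), the largest log2 fold change in either direction was 0.276 and 100% had a 95% interval inside a 1.5-fold change. In that class 29 genes were lower and 2 higher at an unadjusted p under 0.05, and the same genes gave 6 and 3 without F0_3NC replicate 2 and 25 and 7 under upper-quartile scaling. Both directions together were 1.9% of the class, against 4.74% of all genes tested (2.4% lower and 2.34% higher). The lower side was led by Rabgap1, a Rab GTPase-activating protein, at 50.9, 57.9 and 52.1 CPM against 43.4, 42.7 and 46.8 CPM (−0.28 ± 0.08), with an edgeR adjusted p above 0.05 like all of them. The gene 4921524L21Rik stood at 76.2, 80.0 and 78.0 CPM against 65.1, 66.8 and 66.7 CPM (−0.24 ± 0.067), and the kinase Dyrk1a differed by −0.24 ± 0.083. Cypt1 (−0.27 ± 0.083) and Cypt3 (−0.23 ± 0.078), X-linked genes of the cysteine-rich perinuclear theca family, belong to a family of near copies, so reads may be split between them. On the higher side stood Alas1, the first enzyme of heme synthesis, at 106, 110 and 104 CPM against 132, 113 and 133 CPM (0.25 ± 0.077), and Snrnp70, a U1 spliceosome protein (0.19 ± 0.071). Nomo1 (0.16), Acox3 (0.15) and Pptc7 (0.15) had smaller log2 fold changes. The F0_5NC mean lay below that of F0_3NC for Rabgap1, 4921524L21Rik, Dyrk1a, Cypt1 and Cypt3. For Dyrk1a it was 33.82 CPM, against 40.01 in F0_3NC and 33.9 in F0_5251KD. On the higher side it lay above that of F0_3NC for Snrnp70, Nomo1 and Acox3, and below it for Alas1 and Pptc7. The genes whose intervals reached least far from 0 were Ube2l3, a ubiquitin-conjugating enzyme (−0.123 to 0.124), Snrnp200, Ddb1, Rpl24 and Surf4. Rpl24, a ribosomal protein, held 163, 161 and 161 CPM in the controls and 164, 160 and 161 CPM in the knockdown.

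**Figure D2:**
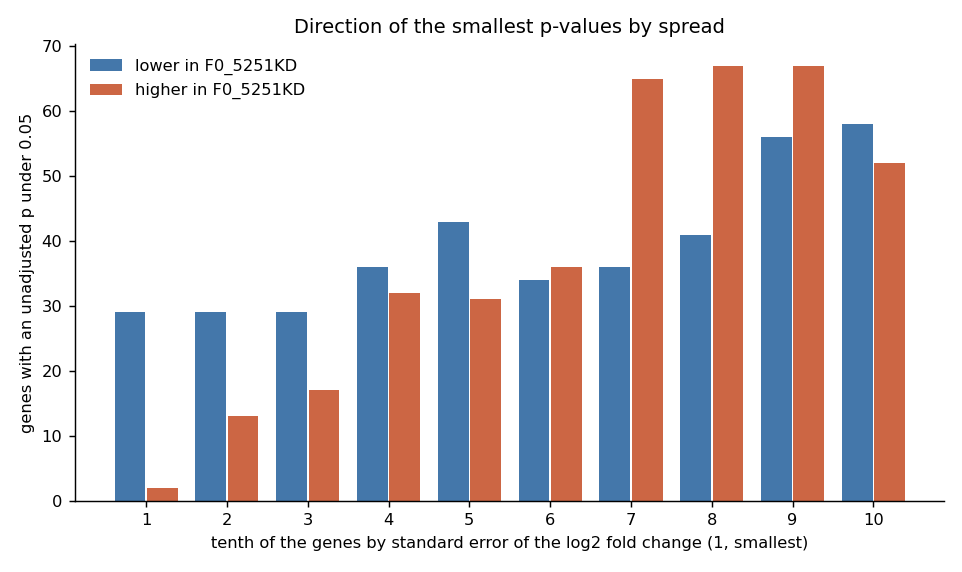
Numbers of genes lower and higher at an unadjusted p under 0.05 in 10 classes of equal size by the standard error of the log2 fold change, lowest standard error first. In the first class 29 genes were lower and 2 higher, and in the eighth 41 were lower and 67 higher. These were 1.9% and 6.63% of their classes, against 4.74% of all genes tested.

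The intervals bound how large the remaining differences could be. For 10881 genes (66.8% of those tested) the 95% interval lay within a 1.5-fold change either way and for 14159 (86.9%) within 2-fold. The bound depended on level: within 2-fold lay 16.3% of genes under 1 CPM, 80.9% of those from 1 to 10 CPM, 98.5% of those from 10 to 100 CPM and 99.6% of those over 100 CPM. With intervals widened to hold for all genes at once, 423 genes lay within 1.5-fold and 5583 (34.3%) within 2-fold. A change under 2-fold in a gene below 1 CPM was thus mostly not detectable at this depth. The test recovered 70 of 100 simulated 2-fold changes and 90 of 100 simulated 4-fold changes among 16064 genes. The changed genes were drawn above a floor on the mean count. Counts were drawn independently, so no simulated library departed across many genes as F0_3NC replicate 2 did.

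**Figure D3:**
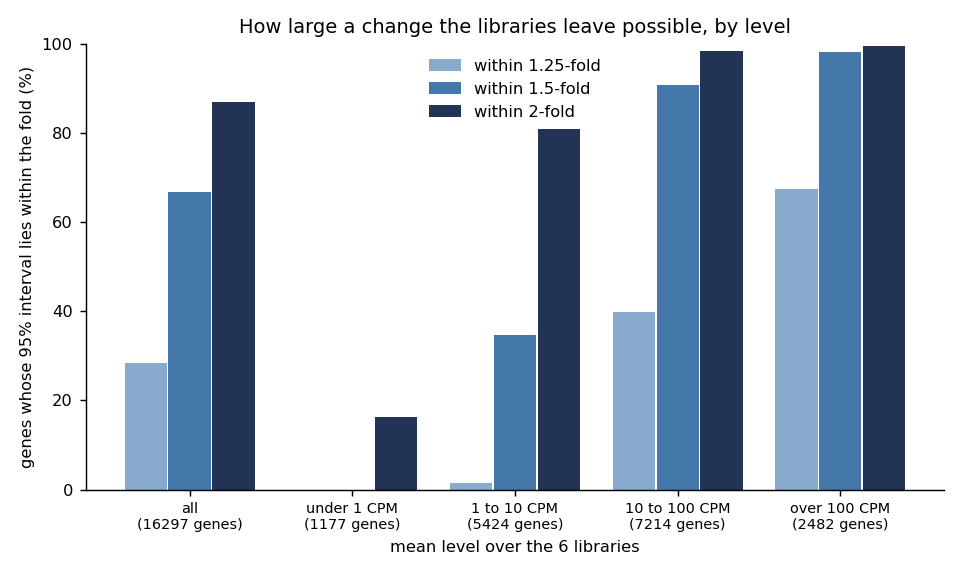
Share of tested genes, in percent, whose 95% interval for the fold change lay within each of 3 fold limits, for all genes and by mean CPM. Within 2-fold lay 16.3% of genes under 1 CPM and 99.6% of genes over 100 CPM.

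Functional classes were read through 60 gene lists, 59 of which had at least 5 genes tested, 2087 genes in all. The median log2 fold change lay within 0.1 of 0 for 44 of the 59, was 0 or above for 26 and under 0 for 33, where all genes tested had −0.0045. The only genes called in any list were the 4 immediate early genes above.

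**Figure D4:**
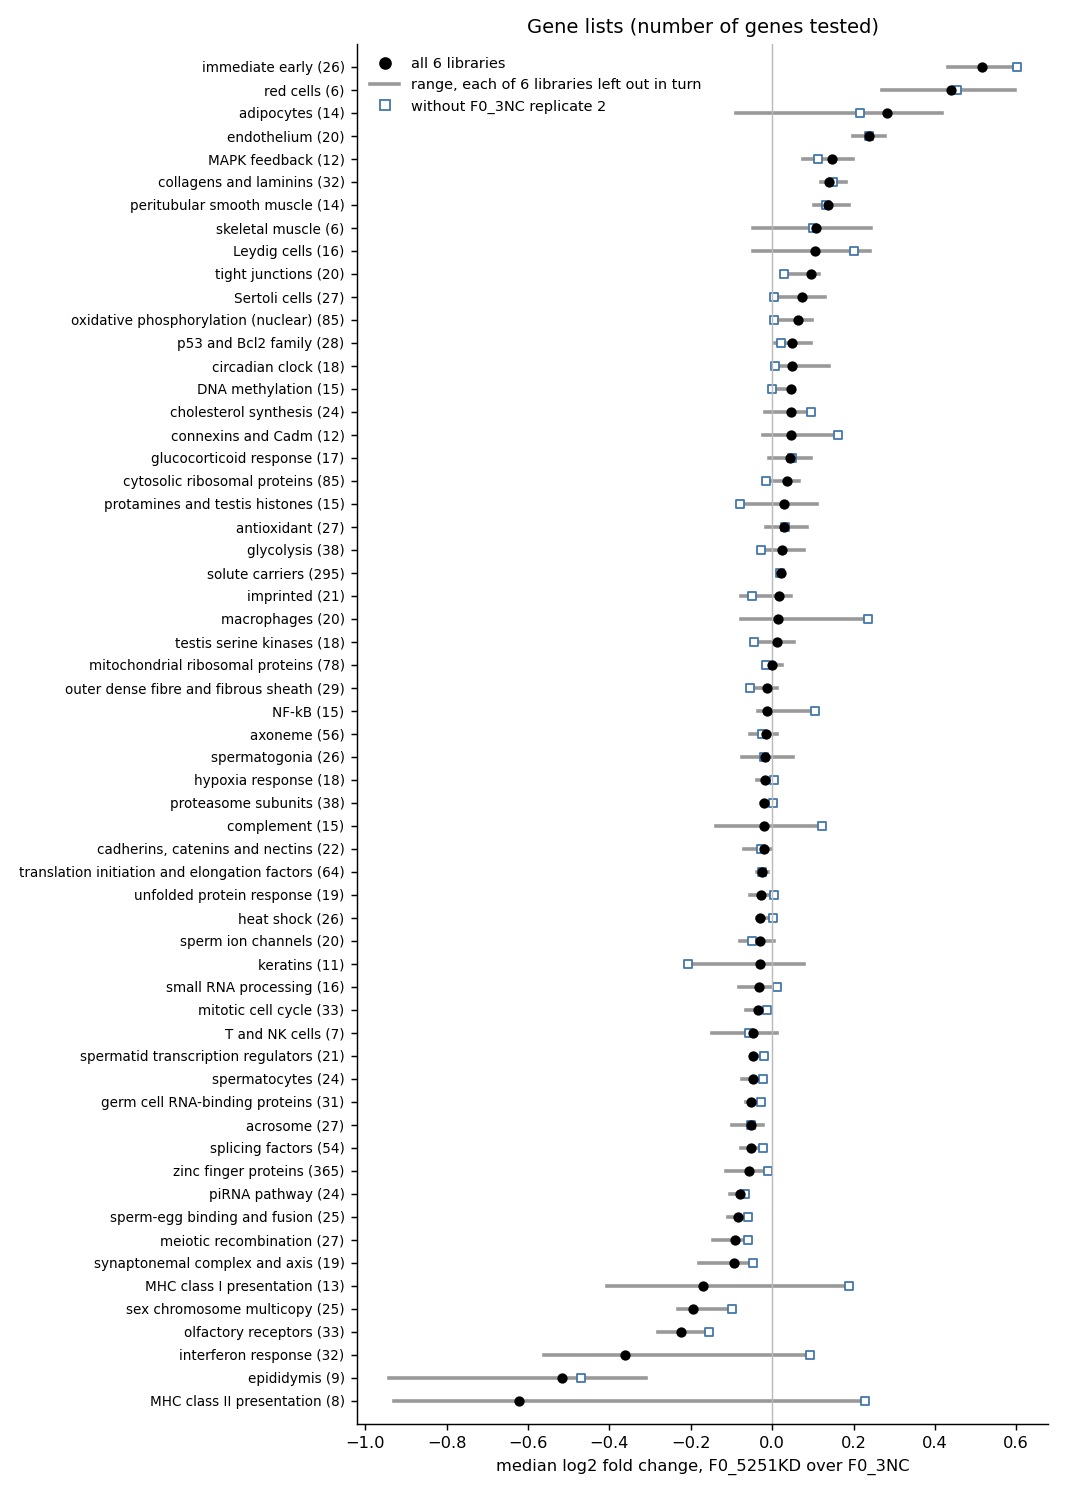
Median log2 fold change, knockdown over control, of each gene list, with a line for its range when 1 library is left out and an open square without F0_3NC replicate 2. Immediate early genes stand highest (0.517), and MHC class II presentation (−0.622) and the interferon response (−0.361) stand low but cross 0 without F0_3NC replicate 2.

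Among the classes with the lowest medians were those of interferon and antigen presentation. Olfactory receptors (median −0.225, 23 of 33 lower) and multicopy genes of the sex chromosomes (−0.195, 20 of 25 lower) were low too. Their medians ran from −0.28 to −0.156 and from −0.231 to −0.099 with 1 library left out. The olfactory list summed to 167, 193 and 167 CPM against 145, 169 and 160 CPM. The multicopy list summed to 217, 259 and 204 CPM against 213, 212 and 205 CPM, so both overlapped. Of 32 interferon response genes 28 were lower, with a median of −0.361 and a called count of 0. The summed level of the list was 183, 456 and 202 CPM in the controls and 200, 180 and 191 CPM in the knockdown. The high value was F0_3NC replicate 2, which was above all 5 other libraries in 29 of the 32 genes, and without it the median was 0.092. In F0_5NC the list summed to 254, 407 and 182 CPM. Iigp1, a GTPase that attacks the vacuoles of intracellular parasites, stood at 3.03, 102 and 9.58 CPM against 6.74, 4.93 and 4.34 CPM (−2.84 ± 1.17). MHC class II presentation had a median of −0.622 over 8 genes, which became 0.229 without that library, and a summed level of 46.6, 128 and 55.4 CPM against 66.0, 44.7 and 43.4 CPM. Its member H2-Ab1, a class II beta chain, stood at 15.5, 26.8 and 20.4 CPM against 14.9, 11.7 and 7.98 CPM. MHC class I presentation had 12 of 13 genes lower and a median of −0.169, which became 0.188. Macrophage markers had a median of 0.015 (11 of 20 higher), 0.235 without that library, and T and NK cell markers −0.046 over 7 genes. The guanylate-binding proteins, a family chosen after its values were seen, were lower in all 10 members with a median of −1.56, and −0.155 without F0_3NC replicate 2; their summed level was 15.2, 126 and 23.5 CPM against 17.8, 14.5 and 18.1 CPM.

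**Figure D5:**
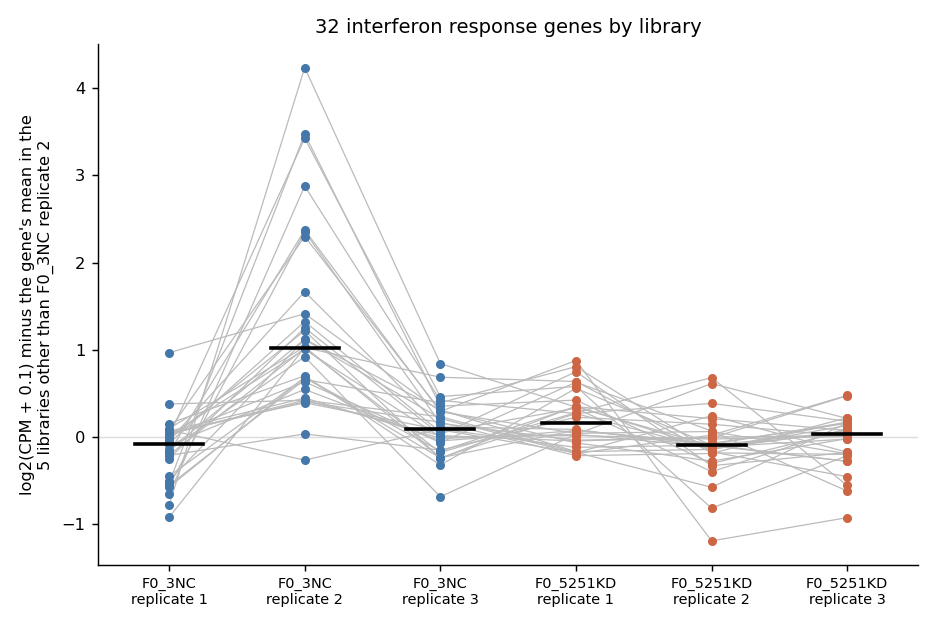
Level of each of the interferon response genes in the 6 libraries, as log2(CPM + 0.1) minus the gene's mean over the 5 libraries other than F0_3NC replicate 2, with lines joining a gene and bars at the median of the genes. In 29 of the 32 genes F0_3NC replicate 2 is above all others, and the centring itself places the remaining libraries around 0.

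Meiotic and piRNA classes had more lower than higher genes, without a called gene. Of 24 piRNA pathway genes, which silence transposons in germ cells, 21 were lower, with a median of −0.078, and 3 had knockdown libraries all below the controls, where 6.27% of all genes did. Highly expressed genes leaned lower as a whole. Of 2463 autosomal genes over 100 CPM, 60% were lower, with a median of −0.031. In that class 9.87% had knockdown libraries all below the controls and 1.99% all above. From 10 to 100 CPM, 51.4% of autosomal genes were lower, with a median of −0.005. The lists were not matched for level. Rnf17, a tudor domain protein, stood at 283, 373 and 270 CPM against 248, 279 and 266 CPM (−0.23 ± 0.127). Of 27 meiotic recombination genes 20 were lower with a median of −0.092, or −0.0601 without F0_3NC replicate 2, and Hfm1, a crossover helicase, stood at 37.4, 41.8 and 38.8 CPM against 25.6, 39.4 and 32.1 CPM (−0.28 ± 0.211). The synaptonemal complex list had 15 of 19 genes lower, a median of −0.093 that was −0.0463 without F0_3NC replicate 2, and Terb2, a telomere attachment protein of meiosis, at 9.28, 11.2 and 8.26 CPM against 6.8, 9.14 and 6.26 CPM. The 2 lowest values of that gene came from knockdown libraries, but the groups overlapped.

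Spermatid classes had medians from −0.085 to 0.029. Sperm-egg binding and fusion had 18 of 25 genes lower with a median of −0.085, the acrosome 18 of 27 with −0.053, sperm ion channels 14 of 20 with −0.03, the axoneme 31 of 56 with −0.016 and the outer dense fibre and fibrous sheath 16 of 29 with −0.012. Without F0_3NC replicate 2 the medians of sperm ion channels, the axoneme and the outer dense fibre were −0.0486, −0.0248 and −0.0556. Protamines and testis histones had a median of 0.029, and −0.079 without that library. Brdt, a bromodomain protein of spermatocytes and spermatids, stood at 364 ± 15.7 CPM against 329 ± 20.4 CPM (SD, n = 3; log2 fold change −0.15 ± 0.082), apart but small. Slc9c1, a sperm sodium-proton exchanger, stood at 152, 169 and 135 CPM against 117, 139 and 123 CPM (−0.27 ± 0.122). Spermatogonial genes had a median of −0.017, and within them Kit, the receptor of stem cell factor, stood at 27.8, 26.8 and 25.6 CPM against 46.5, 37.0 and 33.7 CPM (0.55 ± 0.201). Kitl, its ligand from Sertoli cells, stood at 26.5, 43.8 and 29.9 CPM against 27.4, 17.0 and 17.2 CPM (−0.70 ± 0.252). Neither passed the test.

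Somatic and matrix classes had more higher than lower genes. Endothelial genes were higher in 18 of 20, with a median of 0.239 that stayed between 0.2 and 0.277 with any 1 library left out, and a summed level of 94.1, 95.5 and 100 CPM against 115, 102 and 111 CPM. The same list summed to 116, 102 and 104 CPM in F0_5NC and to 91.1, 103 and 105 CPM in F0_5251OV. At an unadjusted p under 0.05 in edgeR, 2 of the 20 were higher and 0 lower, where 2.34% and 2.4% of all genes were. Plvap, of fenestrated endothelium, stood at 0.838, 0.547 and 0.727 CPM against 1.91, 1.75 and 1.02 CPM (1.14 ± 0.357), while Sox17 was lower (18.4, 17.6 and 17.4 against 15.4, 16.9 and 15.5 CPM). Collagens and laminins were higher in 25 of 32 with a median of 0.139 (0.12 to 0.181 with 1 library left out). Col1a1, of fibrillar collagen, stood at 15.9, 14.2 and 17.0 CPM against 24.8, 20.4 and 26.1 CPM (0.60 ± 0.221), and Col4a1, of basement membrane, at 27.8, 25.8 and 28.9 CPM against 23.5, 17.8 and 19.9 CPM (−0.43 ± 0.177). Peritubular smooth muscle genes were higher in 13 of 14 with a median of 0.138 (0.103 to 0.189), Leydig cell genes in 11 of 16 with 0.106 and Sertoli cell genes in 18 of 27 with 0.074, which became 0.202 and 0.0045 without F0_3NC replicate 2. The Leydig cell median was −0.047 without F0_5251KD replicate 1. Whether the share of these cells differed was not tested.

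Cell junctions are the structures named by the study's question. Tight junction genes were higher in 13 of 20 with a median of 0.096, or 0.0292 without F0_3NC replicate 2, and Cldn3, a claudin of the blood-testis barrier, overlapped at 30.2, 21.4 and 33.7 CPM against 38.1, 34.2 and 29.8 CPM. Cadherins, catenins and nectins were higher in 10 of 22 with a median of −0.021. Cdh22, a classical cadherin, had the largest difference of that list, 1.48, 5.41 and 6.01 CPM against 0.953, 0.713 and 1.53 CPM (−2.004 ± 0.469, edgeR adjusted p = 0.604, DESeq2 adjusted p = 0.0221), with 1 control library inside the knockdown range. Connexins and Cadm genes had a median of 0.046, or 0.162 without F0_3NC replicate 2, and Panx2, a pannexin, stood at 2.26, 1.16 and 2.64 CPM against 3.11, 4.34 and 2.62 CPM.

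Among signalling and housekeeping classes the differences were of either sign within a list. In the NF-kB list, Ccl2, a monocyte chemokine, stood at 3.48, 3.53 and 2.51 CPM against 1.52, 0.973 and 1.09 CPM (−1.40 ± 0.343), and Il1b at 1.87, 2.13 and 1.45 CPM against 2.48, 2.92 and 2.36 CPM (0.51 ± 0.225), with a list median of −0.012 that was 0.105 without F0_3NC replicate 2. Myc, an immediate early transcription factor, was lower where most of its list was higher, at 4.9, 4.93 and 4.23 CPM against 3.05, 2.33 and 2.04 CPM (−0.92 ± 0.222). Hmox1, the heme oxygenase that Bach1 represses, stood at 20.3, 19.6 and 23.6 CPM against 17.3, 12.9 and 17.6 CPM (−0.41 ± 0.137). Cytosolic ribosomal proteins had 56 of 85 genes higher and a median of 0.037, nuclear genes of oxidative phosphorylation 63 of 85 and 0.063, glycolysis 24 of 38 and 0.024, and splicing factors 16 of 54 and −0.053. Without F0_3NC replicate 2 these 4 medians were −0.0146, 0.005, −0.0281 and −0.0221. Zinc finger proteins were lower in 228 of 365 with a median of −0.058, or −0.0101 without that library, and 21 were lower and 10 higher at an unadjusted p under 0.05, where 2.4% and 2.34% of all genes were.

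The adipocyte and epididymal medians depended on single libraries or on which genes passed the filter, and the red cell median stayed above 0. The adipocyte median of 0.283 over 14 genes became −0.089 without F0_5251KD replicate 1 and 0.147 in a fit of only the 6 libraries. The 6 red cell genes had a median of 0.44, between 0.27 and 0.596 with 1 library left out. The list summed to 67.7, 71.3 and 81.3 CPM in the controls and 140, 82 and 101 CPM in the knockdown. The groups overlapped in each red cell gene tested, with Hbb-b1, a beta globin, at 3.61, 12.8 and 14.9 CPM against 25.9, 10.1 and 20 CPM. The epididymal median was −0.516 over 9 genes, and 0.201 in a fit of only the 6 libraries. Several members passed the filter through the LV5 groups, and Crisp1, a sperm-coating protein of the epididymis, stood at 0.322, 1.22 and 5.95 CPM against 0.127, 0.0648 and 0.0639 CPM, with 9.77, 93.8 and 89.9 CPM in F0_5NC. The epididymal markers Defb15, Defb37 and Spint4 were at 0.

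The X chromosome leaned lower. Of 759 X-linked genes 491 were lower, with a median of −0.08. At an unadjusted p under 0.05, 45 of them were lower (5.93%) and 9 higher (1.19%). The 15318 autosomal genes had a median of 0, with 332 lower (2.17%) and 366 higher (2.39%) at that p. Without F0_3NC replicate 2 the X-linked median was −0.0279 and the counts 25 and 12. The mean log2 CPM of X-linked genes minus that of autosomal genes was −1.22, −1.12 and −1.28 in the controls and −1.26, −1.33 and −1.27 in the knockdown, so the groups overlapped. F0_5NC had −1.27, −1.42 and −1.26. The Btbd35f genes, an X-linked multicopy family chosen after its values were seen, were lower in 22 of 29, with a median of −0.307 and −0.159 without F0_3NC replicate 2, and summed to 156, 214 and 207 CPM against 134, 141 and 164 CPM. Cypt genes, also chosen after their values were seen, were lower in 7 of 7 with a median of −0.231, and −0.171 without that library. Reads of such copies may be split or shared in counting, so single members are uncertain.

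Transcript length and seed matches also moved with F0_3NC replicate 2. Over 5 classes of equal size from the shortest to the longest transcripts, the median log2 fold change was 0.024, 0.012, 0, −0.015 and −0.035, and without that library −0.022, −0.01, −0.01, −0.007 and −0.003. Genes whose 3′ untranslated region held the seed match of knockdown 2 (AAACAAA, 4610 genes) had a median of −0.041 against 0.013 for genes without it, and −0.011 against −0.009 without that library. Their 3′ untranslated regions were longer (median 2401 against 864 bases) and lower in GC (42.3% against 46.5%). Within short, middle and long regions the medians were −0.039 against 0.026, −0.024 against 0.012 and −0.049 against −0.007. The matches of knockdown 1 (1843 genes) gave −0.003 on both sides, those of knockdown 3 (176 genes) −0.027 against −0.003, and those of the control (503 genes) −0.006 against −0.003. With the listed strand read as the guide, the largest difference was that of knockdown 3 (TAATAAG, 1261 genes), −0.062 against 0.003, and −0.013 against −0.009 without F0_3NC replicate 2. Genes with this match also had longer 3′ untranslated regions (median 2814 against 1120 bases), lower in GC (40.7% against 45.5%). At an unadjusted p under 0.05 in edgeR, 2.3% were lower both with and without it. The 6-base match of the opposite strand of knockdown 3 (3525 genes) gave −0.044 against 0.011, and −0.012 against −0.009 without that library.

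A test on the summed counts of the 3 libraries of each group, at the thresholds of the study's methods, called 56 genes higher (0.28% of the 19999 genes tested that way) and 87 lower (0.435%). This compares 2 sums, not the conditions, since it uses no spread between libraries. Of the 56, edgeR called 3 and 30 had groups that did not overlap, and of the 87, edgeR called 0 and 37 did not overlap. A single library held more than 50% of its group's count for 24 of the 56 and for 57 of the 87, and in 39 of the 57 it was F0_3NC replicate 2. The guanylate-binding proteins and immunity-related GTPases with their relatives, 36 genes by name, supplied 21 of the 87 and none of the 56. Of the 391 genes lower at an unadjusted p under 0.05 in edgeR, F0_3NC replicate 2 was the highest of the 6 libraries in 260, and of the 382 higher it was the lowest in 189.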

How the data were processed

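RNA from whole testis (oligo(dT) selection, random hexamers, Illumina HiSeq, no strand-marking step named) was aligned by the authors to mm10 with SOAPaligner. The authors deposited 1 table of estimated counts and FPKM for 20718 genes. Of the estimated counts 12% were not whole, and all were rounded. The deposited FPKM values entered only the limma alternative. 18 columns of samples outside the series were not used.

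Genes were filtered (filterByExpr) and fitted over all 12 libraries with TMM scaling in edgeR 4.0.16 (R 4.3.3, quasi-likelihood test, Benjamini-Hochberg adjustment, no covariate, 8 residual degrees of freedom), so F0_5NC and F0_5251OV share the estimate of the spread. CPM is counts per 1000000 of the TMM-scaled library total. Intervals come from the moderated t distribution. Alternatives were DESeq2 1.42.0, limma 3.58.1 on log2 FPKM plus 1 or 0.1, other filters and scalings, a replicate block, the 6 libraries alone and each library left out. Data simulated gene by gene checked the tests: edgeR made 7 false calls and 95.1% of its intervals held the value set. DESeq2 made 18 false calls and recovered 78 of 100 simulated 2-fold and 88 of 100 simulated 4-fold changes.

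Named genes were those called, the 10 lower and 10 higher with the smallest p among non-overlapping genes of at least 1 CPM outside the immediate early, MAPK feedback and NF-kB lists, the leading and narrowest genes of the 10% with the lowest standard error, the lowest and highest member of each list, Purb and Medag. 1 of the 10 lower genes is not reported here. Members and lists were chosen with earlier results of these data known. Transcripts were from GENCODE (97.4% of genes tested matched) and promoters from RefSeq, both on mm10.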

Additional observations from a re-analysis of the deposited data

How the results depend on the processing

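The 4 higher calls became 15 with DESeq2, 56 with the pooled-count test, 2 with limma on log2(FPKM + 1), 0 with limma on log2(FPKM + 0.1), and 0 to 4 with 1 library left out (0 on leaving out replicate 1 or 3 of F0_3NC, or replicate 3 of F0_5251KD). The 0 lower calls became 5 with DESeq2, 87 with the pooled-count test, 1 with only the 6 libraries and 0 to 0 with 1 library left out. With the replicate number as a block, 2 genes were called higher over 12 libraries and 0 over the 6. Deviations from the group means correlated by 0.065, 0 and −0.005 between same-numbered libraries and by −0.053 to 0.048 between the others. With 3 libraries per group these values depend on one another and cannot decide whether the numbers pair the libraries. At an unadjusted p under 0.05 the counts with 1 library left out ran from 235 to 465 higher and from 243 to 557 lower, the 243 without F0_3NC replicate 2. In the 10% of genes with the lowest standard error, taken anew in each fit, the 29 lower genes became 15 with only the 6 libraries, 16 with the block over 6 libraries and 6 to 38 with 1 library left out, and the 2 higher genes became 13 with DESeq2, 9 with a 1 CPM filter, 16 and 29 with limma on log2(FPKM + 0.1) and log2(FPKM + 1), 8 with no filter, 4 and 6 with the block, 10 with upper-quartile scaling and 4 to 10. Over the genes each fit tested, the X-linked counts ran from 25 to 64 lower and 7 to 15 higher with 1 library left out, and the higher count was 14 with no filter and 5 with the block over 6 libraries. Of 2323 values of named genes over these alternatives 30 lost and 12 gained significance, 43 moved and 0 were counted as reversed. That count does not cover every change of sign. With 1 library left out, the log2 fold change of H2-T23 (−0.561) reached 0.232 and that of Tap2 (0.149) reached −0.352. Of 898 list medians 35 moved. The median of all genes moved between −0.0105 and 0.0108. The cause of these differences was not tested. The counts by standard error and on the X chromosome were recomputed as checks chosen after seeing the data. Depth limits genes below 1 CPM most.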
